A study of Mus musculus with 21 samples.

Results

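The enzymes and transporters that make, store, recover and break down dopamine, noradrenaline and serotonin were followed in the brains of SAMP8 mice through 9 listed genes, 4 for synthesis (Th, Ddc, Dbh and Tph2), 3 for transport (Slc18a2, Slc6a3 and Slc6a4) and 2 for breakdown (Maoa and Maob). The genes were taken by name from the deposited table of 16318 genes, in which 7 of the 9 had a row, and Dbh and Slc6a4 were not analysed here. RNA had been sequenced from the brains of 21 SAMP8 mice, an inbred strain that ages early and is used as a model of sporadic Alzheimer's disease, with 1 library per mouse. PBS had been given to 12 mice (6 female and 6 male), and HsTX1[R14A], a scorpion toxin analogue that blocks the potassium channel Kv1.3, to 9 mice (3 female and 6 male) at 1 mg/kg. Injections were subcutaneous, every other day for 8 weeks, so that all mice were 4 months old at the first dose and 6 months old at the end. Mice are named below by group and by the number in their label.

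Dopamine and noradrenaline are made from tyrosine, which tyrosine hydroxylase (Th) turns into L-DOPA and aromatic L-amino acid decarboxylase (Ddc) into dopamine, while tryptophan hydroxylase 2 (Tph2) starts serotonin synthesis in neurons and shares Ddc for the last step. Slc18a2, the vesicular monoamine transporter VMAT2, loads all these amines into vesicles, Slc6a3, the dopamine transporter DAT, takes dopamine back into dopamine neurons, and the monoamine oxidases Maoa and Maob degrade the amines. The cells that carry the synthesis genes are few and sit in small nuclei, with dopamine cell bodies in the ventral midbrain, the hypothalamus and the olfactory bulb and serotonin cell bodies in the raphe, whereas Maob is found mainly in astrocytes and serotonin neurons.

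Each library is a bulk measurement of the brain. In it, fewer cells of a type, less RNA per cell and a different share of brain regions cannot be told apart. Library totals ran from 14917174 to 47613792 counts, and 16303 genes, all 7 monoamine genes among them, passed the filter on low counts. Values are counts per 1000000 counts (CPM) on library sizes scaled by edgeR's TMM method. At these depths 3 counts correspond to 0.0609 to 0.213 CPM, and intervals on single libraries are exact binomial intervals that cover counting error only. Library totals did not differ between treatments beyond the spread between mice (exact permutation test within sex, two-sided, p = 0.405). The slope of log2 CPM on log2 transcript length, a library measure that often follows RNA quality, averaged -0.0764 ± 0.161 (SD) over the 12 PBS mice and 0.102 ± 0.119 over the 9 HsTX1[R14A] mice (exact permutation test within sex, p = 0.00631). Library names came in 2 forms that divide the groups unequally, with 10 PBS and 5 HsTX1[R14A] mice in the SAMP8 form and 2 and 4 in the SAMP form. All 10 neuron markers were expressed, summing to between 6169 and 10596 CPM, while none of 13 hindbrain markers (Hox genes and Slc6a5) had a row. The sum of 9 cerebellum markers was 312 to 530 CPM in PBS mice and 275 to 1036 CPM in HsTX1[R14A] mice, highest in male 74. The lowest of these markers, Pcp2, Cbln3 and Gabra6, had PBS medians of 0.0908, 0.340 and 0.127 CPM. Their highest values in HsTX1[R14A] mice were 38.9, 128 and 90.1 CPM. Which brain regions each library holds was not tested.

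The sequences around the transcription start are shown for Th, Ddc, Slc18a2 and Slc6a3, the dopamine genes that were highest together in the same 2 mice. They are RefSeq sequences (GRCm38.p6), read 5′ to 3′ on the gene's own strand from 100 bases before to 20 bases after each start, and capitals mark matches to any of 3 motifs that were searched on both strands of the full 300-base entries: the cAMP response element TGACGTCA, the nuclear receptor element AAAGGTCA (reverse complement TGACCTTT) and the TATA box letters TATAAA (reverse complement TTTATA).
Th (chr7:142899976-142900095, minus strand): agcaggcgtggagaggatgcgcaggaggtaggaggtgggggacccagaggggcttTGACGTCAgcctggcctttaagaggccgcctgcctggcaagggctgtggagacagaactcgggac
Slc18a2 (chr19:59260778-59260897, plus strand): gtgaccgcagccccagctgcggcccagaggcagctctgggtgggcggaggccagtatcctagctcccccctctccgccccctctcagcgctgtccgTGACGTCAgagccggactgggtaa
Ddc, upstream start (chr11:11898125-11898244, minus strand): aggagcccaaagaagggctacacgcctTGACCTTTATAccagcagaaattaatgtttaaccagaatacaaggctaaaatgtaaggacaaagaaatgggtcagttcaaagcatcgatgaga
Ddc, downstream start (chr11:11890389-11890508, minus strand): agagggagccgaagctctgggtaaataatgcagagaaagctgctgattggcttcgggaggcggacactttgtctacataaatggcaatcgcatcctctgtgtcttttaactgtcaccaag
Slc6a3 (chr13:73536647-73536766, plus strand): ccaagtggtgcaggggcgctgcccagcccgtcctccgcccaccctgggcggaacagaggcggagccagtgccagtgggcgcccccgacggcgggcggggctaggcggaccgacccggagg
The cAMP response element stood from 45 to 38 bases before the start of Th and across the start of Slc18a2, from 4 bases before to 4 bases after it. Among 32851 mouse promoter entries of the same length, 1.79% held it. The upstream Ddc start carried the nuclear receptor element and the TATA letters on the reverse strand, which overlap in the capitals shown, 73 to 63 bases before the start, and 1.51% and 13.6% of all entries held these motifs. Tph2 held TATAAA 30 to 25 bases before its start, and Slc6a3, Maoa and the downstream Ddc start held none of the 3 motifs in the entry. A match describes letters and not a site in use.

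Th encodes tyrosine hydroxylase, the rate-limiting enzyme of catecholamine synthesis (ENSMUSG00000000214, chr7:142892752-142931128, minus strand, GRCm38). Its level ran from 1.14 through a median of 4.40 to 16.2 CPM in the 12 PBS mice and from 3.44 through 4.71 to 27.7 CPM in the 9 HsTX1[R14A] mice. The medians lay close together and the ranges overlapped, but 3 HsTX1[R14A] mice, female 71 (25.4 CPM), male 88 (27.7 CPM) and female 98 (22.5 CPM), stood above every PBS mouse. HsTX1[R14A] mice differed from PBS mice by a log2 fold change of 1.05 (SE 0.47, 95% interval 0.08 to 2.02), which did not pass after adjustment (edgeR's quasi-likelihood test with sex in the model, Benjamini-Hochberg adjusted p = 0.0848, threshold 0.05). The difference passed only when PBS female 105 (1.25, adjusted p = 0.0498) or PBS male 83 (1.31, adjusted p = 0.0379), both high in Th, was left out. It was 0.68 without male 88 (adjusted p = 0.254), 0.43 without mice 71 and 88 (adjusted p = 0.496), 0.27 with the library length slope as a covariate (adjusted p = 0.879) and 0.06 within the SAMP form of the library name (adjusted p = 0.983).

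Ddc (ENSMUSG00000020182, chr11:11814101-11898144, minus strand) makes dopamine and serotonin from their direct precursors. Its level ran from 2.34 through 4.31 to 8.94 CPM in PBS mice and from 2.90 through 4.34 to 25.1 CPM in HsTX1[R14A] mice. Only female 71 (25.1 CPM) and male 88 (14.9 CPM) exceeded the PBS range, and the other 7 HsTX1[R14A] mice lay between 2.90 and 5.14 CPM. The difference was a log2 fold change of 0.65 (SE 0.35, 95% interval -0.06 to 1.37, adjusted p = 0.140 by edgeR's quasi-likelihood test). Without mice 71 and 88, left out after the values were seen, it was -0.23 (adjusted p = 0.454).

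Tph2 (ENSMUSG00000006764, chr10:115078641-115185022, minus strand), the neuronal tryptophan hydroxylase that limits serotonin synthesis, was near the lower limit of the table, with 5 to 105 counts per library. Levels were 0.313 to 1.10 CPM (median 0.666) in PBS mice and 0.194 to 2.79 CPM (median 0.465) in HsTX1[R14A] mice. HsTX1[R14A] female 71 (2.79 CPM, 95% binomial interval 2.28 to 3.37) was above all PBS mice, and 3 HsTX1[R14A] mice were below all of them. The treatment estimate was a log2 fold change of 0.23 (SE 0.38, 95% interval -0.57 to 1.03, adjusted p = 0.657), and it was -0.51 (adjusted p = 0.203) without female 71.

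Slc18a2 encodes the vesicular transporter (ENSMUSG00000025094, chr19:59260896-59296012, plus strand). Its level ran from 0.837 through 2.54 to 5.61 CPM in PBS mice and from 0.711 through 1.09 to 18.6 CPM in HsTX1[R14A] mice. The HsTX1[R14A] group was split: female 71 (18.6 CPM) and male 88 (10.5 CPM) stood above every PBS mouse, and each of the other 7 (0.711 to 2.36 CPM) lay below the PBS median. The treatment estimate was a log2 fold change of 0.86 with all mice (SE 0.51, 95% interval -0.20 to 1.92, adjusted p = 0.185) and -0.80 without those 2 (adjusted p = 0.0943). Slc18a2 and Ddc overlap annotated antisense genes (Gm29261 and 1700042O10Rik), and the strand setting of the counting is not given in the sources used here. Their counts may therefore hold antisense reads, in a share that was not measured.

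Slc6a3, the dopamine transporter (ENSMUSG00000021609, chr13:73536747-73578672, plus strand), was the 1 gene of the 7 that passed the treatment test, where 31.6% of the 16303 genes tested passed in either direction and 15.5% passed as higher. Its level ran from 0.0974 through 0.342 to 2.28 CPM in PBS mice and from 0.119 through 0.492 to 27.9 CPM in HsTX1[R14A] mice. Female 71 held 1053 counts (27.9 CPM, 95% binomial interval 26.3 to 29.7) and male 88 held 686 counts (18.3 CPM, 16.999 to 19.8), against 3 to 82 counts in PBS mice. The log2 fold change was 3.31 (9.93-fold, SE 0.84, 95% interval 1.56 to 5.06, adjusted p = 0.0171 by edgeR's quasi-likelihood test).
The difference rested on those 2 mice. The mean of the other 7 HsTX1[R14A] mice was 0.494 ± 0.405 CPM (SD), against 0.612 ± 0.624 CPM over the 12 PBS mice, and the ranges overlapped, with PBS female 85 (2.28 CPM) the highest of these 19. The log2 fold change fell to 2.25 without female 71 (adjusted p = 0.0787), to 1.95 without male 88 (adjusted p = 0.0665) and to -0.09 without both (adjusted p = 0.903). Both mice carry the SAMP8 form of the library name. Within that form alone the log2 fold change was 3.98 (10 PBS against 5 HsTX1[R14A] mice, adjusted p = 0.0563), and within the SAMP form it was 0.07 (2 against 4 mice, adjusted p = 0.983). With the library length slope as a covariate the estimate over all mice was 2.41 (adjusted p = 0.463).

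**Figure D1:**
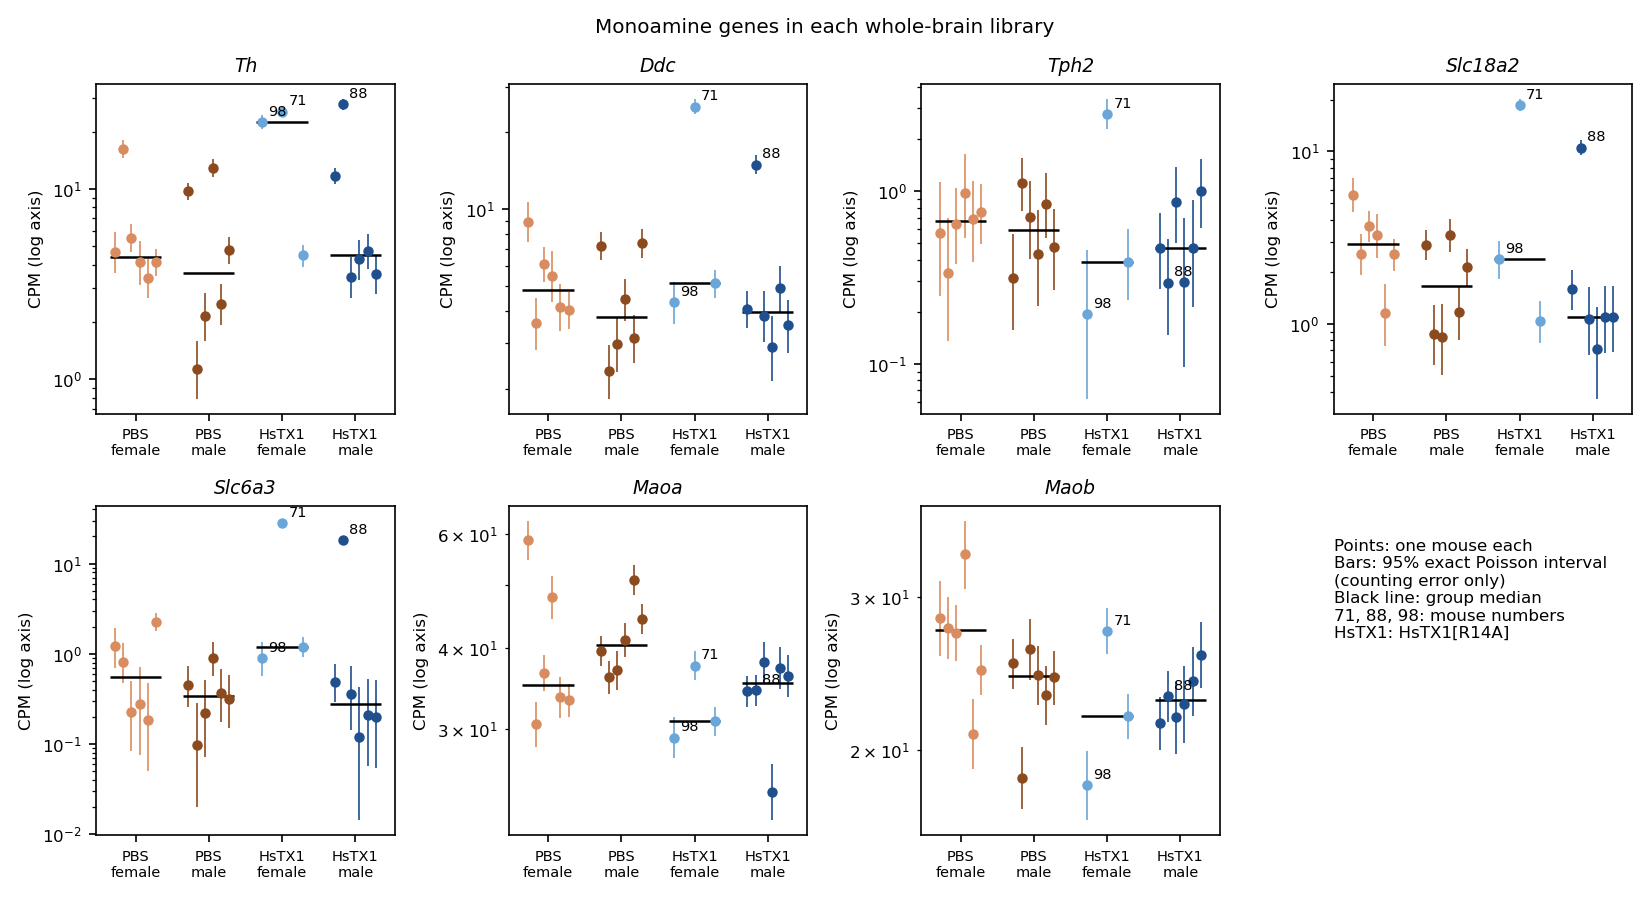
CPM (log axis) of each of the 7 monoamine genes in each mouse, by treatment and sex, with 95% exact binomial intervals (called Poisson in the key) and a black line at each group median. Mice 71 and 88 stand above all PBS mice in Th, Ddc, Slc18a2 and Slc6a3, while Maoa stays between 24.01 and 58.6 CPM and Maob between 18.2 and 33.6 CPM.

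Maoa (ENSMUSG00000025037, chrX:16619698-16687818, plus strand) prefers serotonin and noradrenaline as substrates. Its level ran from 30.5 through 38.3 to 58.6 CPM in PBS mice and from 24.01 through 34.4 to 38.1 CPM in HsTX1[R14A] mice. The groups overlapped, although none of the 9 HsTX1[R14A] mice exceeded the PBS median and 2 (female 98 and male 81) lay below the PBS range. The log2 fold change was -0.29 (SE 0.11, 95% interval -0.52 to -0.06), just short of the threshold (adjusted p = 0.0531). It passed under 7 of 35 alternatives, among them DESeq2 (-0.29, adjusted p = 0.0425) and leaving out PBS female 105, 84, 104 or 85 or HsTX1[R14A] male 93 (lowest adjusted p = 0.0390). With the library length slope in the model it was -0.01 (adjusted p = 0.965).

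Maob (ENSMUSG00000040147, chrX:16709282-16817366, minus strand), the astrocytic oxidase and the neighbour of Maoa on the X chromosome, ran from 18.6 through 24.9 to 33.6 CPM in PBS mice and from 18.2 through 22.6 to 27.4 CPM in HsTX1[R14A] mice. All but 1 of the HsTX1[R14A] values fell inside the PBS range. Its log2 fold change of -0.12 (SE 0.09, 95% interval -0.31 to 0.06) did not pass (adjusted p = 0.274).

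**Figure D2:**
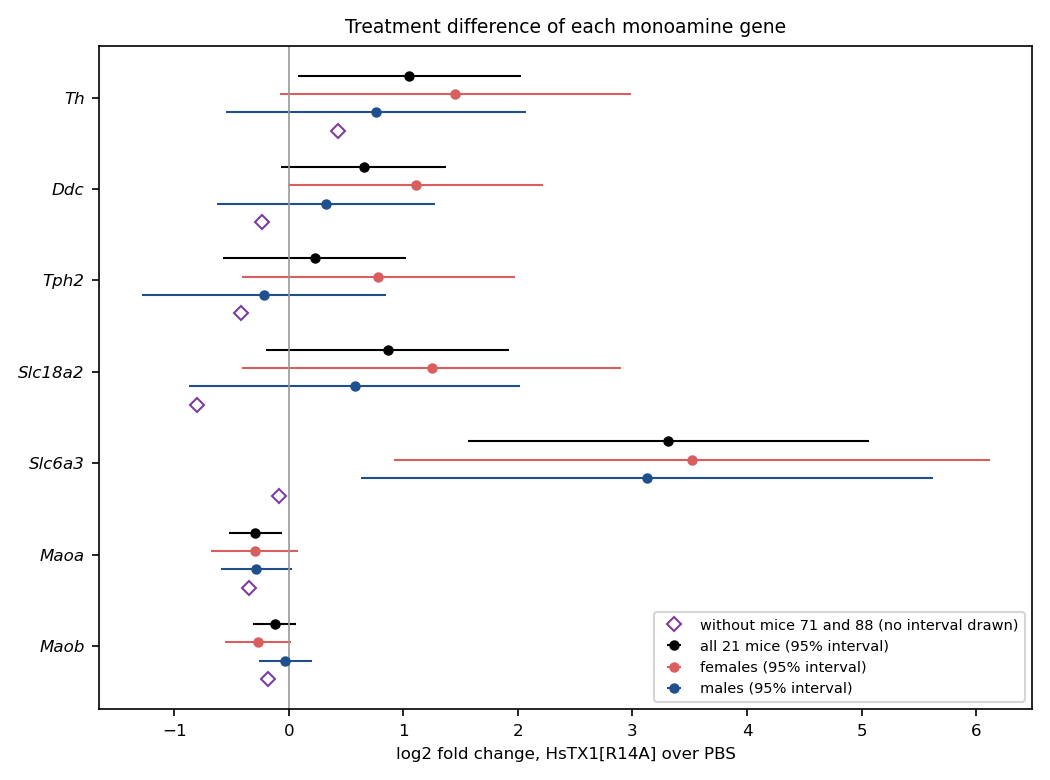
Log2 fold change between HsTX1[R14A] and PBS mice (positive where HsTX1[R14A] was higher) for each gene in all 21 mice and within females and males, with 95% intervals from edgeR, and the estimate without mice 71 and 88 (open diamonds). The Slc6a3 estimate moves from 3.31 to -0.09 when both mice are left out, whereas Maoa moves from -0.29 to -0.34.

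The effect of treatment was then compared between sexes. None of the 7 genes passed the treatment by sex interaction, where 0% of all genes passed by edgeR, limma/voom or DESeq2 (270, 250 and 302 genes at an unadjusted p under 0.05). Within females the Slc6a3 log2 fold change was 3.52 (SE 1.25, adjusted p = 0.150) and within males 3.13 (SE 1.198, adjusted p = 0.178). Each sex contains 1 of the 2 high mice. The interaction estimate for Slc6a3 was -0.39 (95% interval -4.14 to 3.37), an interval too wide to show that the sexes responded alike. For Th the estimates were 1.46 (SE 0.73, adjusted p = 0.192) in females and 0.76 (SE 0.63, adjusted p = 0.425) in males.

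None of the 7 genes differed between sexes over both treatments, where 0.0552% of genes passed, 0.0307% higher and 0.0245% lower in males (1765 at an unadjusted p under 0.05). The estimate furthest from 0 was that of Slc6a3, lower in males by a log2 fold change of -1.36 (SE 0.84, adjusted p = 0.448), followed by Slc18a2 at -1.02 (SE 0.51, adjusted p = 0.446). Both moved with the 2 high mice: the Slc6a3 estimate was -0.14 without female 71 and -2.89 without male 88, and that of Slc18a2 -0.27 and -1.51. Slc18a2 averaged 3.13 ± 1.49 CPM (SD) over the 6 PBS females and 1.86 ± 1.06 CPM over the 6 PBS males, with overlapping ranges. Maoa and Maob, which are X-linked, differed by 0.06 (adjusted p = 0.773) and -0.10 (adjusted p = 0.523).

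Levels between genes were compared per kilobase of the longest annotated transcript. Over 21 mice, Maob had the highest mean level (10.1 ± 1.46 CPM per kb, SD) and Maoa the next (9.04 ± 1.86), followed by Th (4.37 ± 4.09) and Ddc (3.03 ± 2.55), and then by Slc6a3 (0.787 ± 2.02), Slc18a2 (0.737 ± 0.947) and Tph2 (0.264 ± 0.208). The oxidases thus stood above the synthesis and transport genes, and Maoa exceeded Th in 17 of 21 mice. Ddc exceeded Slc6a3 in 21 of 21 mice and Slc18a2 exceeded Tph2 in 15, whereas Th and Ddc did not separate, with Th the higher in 10 of 21. For Slc6a3 and Slc18a2 the order of the means was not that of most mice, since Slc6a3 was the higher in 4 of 21. Without mice 71 and 88 the mean of Slc6a3 was 0.165 CPM per kb and it became the lowest of the 7.

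The spread between mice set the catecholamine genes apart. Across the 12 PBS mice the coefficient of variation was 102% for Slc6a3, 77.7% for Th, 56.1% for Slc18a2 and 40.9% for Ddc, against a median of 19.1% among 1814 genes at the level of Th and 25.6% among 1254 at the level of Slc6a3. Among genes of like level, 99.6% varied less than Th and 99.0% less than Slc6a3. Level here was the mean over all mice of both treatments. For Slc6a3 that mean was 2.72 CPM, raised by mice 71 and 88, against 0.612 CPM in PBS mice. Its spread in PBS mice was thus set beside genes of a higher level than its own there. At the level of Tph2 (0.694 CPM), nearer the PBS mean of Slc6a3, the median was 36.5%. The share of genes there that varied less than Slc6a3 was not computed. Tph2 (37.5%, where the median at its level was 36.5%), Maoa (20.3%, against 15.8%) and Maob (15.1%, against 16.01%) varied about as much as other genes. These figures describe the mice without a test.

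The ratios of the genes within each mouse also differed. Slc6a3 counts were 0.0411 to 0.554 of the Th counts in PBS mice (median 0.0687), and 0.0278 to 0.268 in the 7 other HsTX1[R14A] mice (median 0.0440). In HsTX1[R14A] female 71 the ratio was 1.10 and in male 88 it was 0.662, above all 19 others. HsTX1[R14A] female 98, also high in Th, had a ratio of 0.0396. Female 71 and male 88 also had 0.742 and 0.706 Slc18a2 counts per Ddc count, where PBS mice ran from 0.275 to 0.737, so that female 71 lay just above that range and male 88 within it.

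The neurons that hold these genes sit in small regions. Each gene was therefore set beside markers of brain regions and cell types in the same mouse, a comparison chosen after the values were seen. It covered 91 relations (7 genes with 12 marker lists and the length slope), computed on log2 CPM with the mean of each treatment and sex group removed. In every correlation a list was represented by the mean log2 CPM of its markers, called its marker mean below. Sums in CPM are given as levels only and were not correlated. Permutation tests used 100000 resamples, so that the smallest p they can give is 1e-05. The sums of 5 olfactory bulb markers other than Th fell into 2 sets with a gap between them: 15 mice (9 PBS and 6 HsTX1[R14A]) at 6.52 to 21.04 CPM and 6 mice (3 and 3) at 48.0 to 130 CPM. All 6 mice of the upper set had Th at 9.71 to 27.7 CPM, and 14 of the 15 of the lower set had it at 1.14 to 5.54 CPM. The exception was HsTX1[R14A] female 71, with Th at 25.4 CPM and an olfactory bulb sum of 13.03 CPM.

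Within the sets no group means were removed. In the upper set of 6, Th and the olfactory bulb marker mean correlated with r = 0.94 (exact permutation p = 0.00972, adjusted over 3 relations 0.0292, Spearman's rho 0.94, p = 0.0167). Within the lower set without female 71 the correlation was r = 0.76 (n = 14, permutation p = 0.00457, rho 0.72, p = 0.00478), but r = 0.40 once the 2 mice farthest from the median Th were left out, so that it rested on those mice. Male 88 and female 98 were in the upper set (114 and 130 CPM). Tph2 went the other way over all 21 mice, with group means removed. Its r with the olfactory bulb marker mean was -0.66 (permutation adjusted p = 0.00842, rho -0.66, adjusted p = 0.0238). Within the upper set this r was -0.65 (n = 6, exact permutation p = 0.154). Within the lower set it was -0.29 (n = 15, permutation p = 0.292), and -0.19 without female 71 (n = 14, permutation p = 0.523). The treatment ranges of the olfactory bulb sum were 6.52 to 92.0 CPM (median 15.3) in PBS mice and 13.03 to 130 CPM (median 17.8) in HsTX1[R14A] mice, and 0 of the 6 markers on this list passed the treatment test. The part of these sums in the Th differences was not tested.

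Ddc and Slc18a2 were set beside hypothalamus markers. Among the 19 mice without 71 and 88, the correlation with the marker mean of 9 neuropeptide genes was r = 0.93 for Ddc (rho 0.92, permutation p = 1e-05 for both, adjusted p = 0.000455 for r, r = 0.93 without the 2 mice farthest from the median) and r = 0.75 for Slc18a2 (p = 0.00025, adjusted p = 0.00379, rho 0.70, p = 0.00124, r = 0.74 without the farthest 2). In the 12 PBS mice alone the values were 0.93 (adjusted p = 0.00182) and 0.91 (adjusted p = 0.00243). HsTX1[R14A] female 71 (182 CPM) and male 88 (181 CPM) had the next highest sums after PBS female 103 (414 CPM), which also had the highest PBS level of both genes. The hypothalamus sums ran from 13.3 to 414 CPM (median 70.3) in PBS mice and from 21.8 to 182 CPM (median 46.6) in HsTX1[R14A] mice, and their part in the differences of Ddc and Slc18a2 was not tested. Slc18a2 was set beside the olfactory bulb markers as well: its median was 2.71 CPM (1.59 to 10.5) in the 6 mice of the upper set and 1.12 CPM (0.711 to 5.61) in the 14 mice of the lower set without female 71. Within these sets its r with the olfactory bulb marker mean was 0.46 (exact permutation p = 0.403, rho 0.09, p = 0.919) and 0.56 (n = 14, permutation p = 0.0356, adjusted over 2 relations 0.0712, rho 0.71, p = 0.00646, r = 0.40 without the 2 farthest mice). Female 71 further had the lowest sum of 10 striatum markers (594 CPM, where the other 20 mice had at least 1065) and the second highest sum of 3 pineal and pituitary markers (28.8 CPM).

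**Figure D3:**
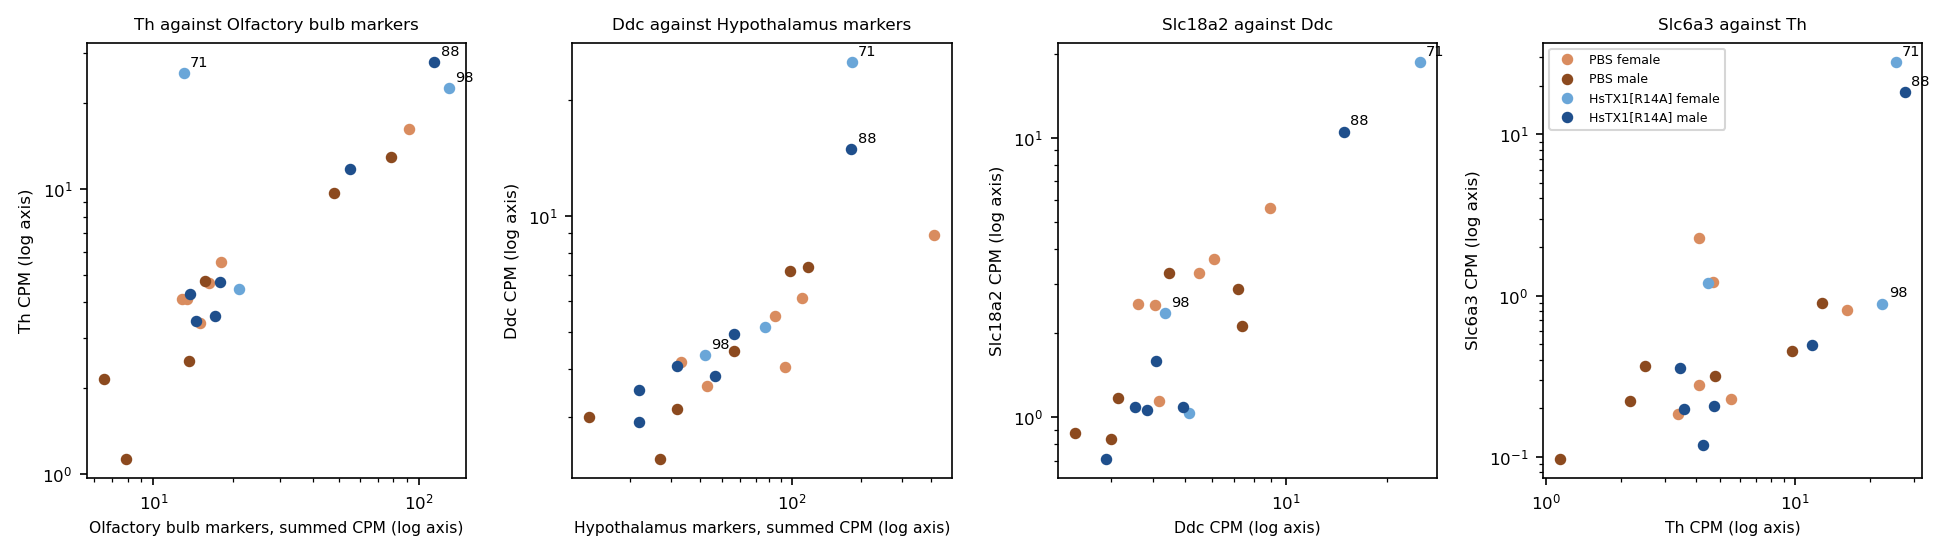
Pairs of values per mouse on log axes, in CPM: Th against the olfactory bulb marker sum, Ddc against the hypothalamus marker sum, Slc18a2 against Ddc, and Slc6a3 against Th, with colours for treatment and sex. Mouse 71 has high Th (25.4 CPM) at a low olfactory bulb sum (13.03 CPM), and mice 71 and 88 lie apart from the other 19 in Slc6a3.

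The oxidases were set beside the markers of cell types in the same way. Maoa correlated inversely with the marker mean of 10 neuron markers (r = -0.81, n = 21, permutation p = 3e-05, adjusted p = 0.000682, rho -0.77, p = 9e-05, r = -0.66 without the 2 farthest mice). It correlated directly with that of 8 microglia markers by r, but rho did not pass after adjustment (r = 0.63, p = 0.00212, adjusted p = 0.0193, rho 0.54, p = 0.0121, adjusted p = 0.0787, r = 0.51 without the farthest). With the marker mean of 10 endothelial and mural markers Maoa correlated inversely by r, but rho did not pass after adjustment (r = -0.58, permutation adjusted p = 0.0488, rho -0.48, adjusted p = 0.155, r = -0.31 without the farthest). Maoa also fell as the length slope rose (r = -0.77, p = 7e-05, adjusted p = 0.00127, rho -0.71, p = 0.00062, r = -0.62 without the farthest). In the 12 PBS mice alone its r was -0.78 with neuron markers (permutation adjusted p = 0.0369). It was 0.85 with microglia markers (adjusted p = 0.0125) and -0.80 with the slope (adjusted p = 0.0271). Maob correlated with the marker mean of 10 astrocyte markers by r, but rho did not pass after adjustment (r = 0.69, permutation p = 0.00074, adjusted p = 0.00842, rho 0.57, p = 0.00748, adjusted p = 0.0659, r = 0.62 without the farthest). In the 12 PBS mice alone neither passed (r = 0.57, permutation adjusted p = 0.395, rho 0.23). For Maoa, 3 of 8 microglia markers fell with treatment and 2 of 10 neuron markers rose, and for Maob, 4 of 10 astrocyte markers fell, and the part of these cell types in the oxidase values was not tested.

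**Figure D4:**
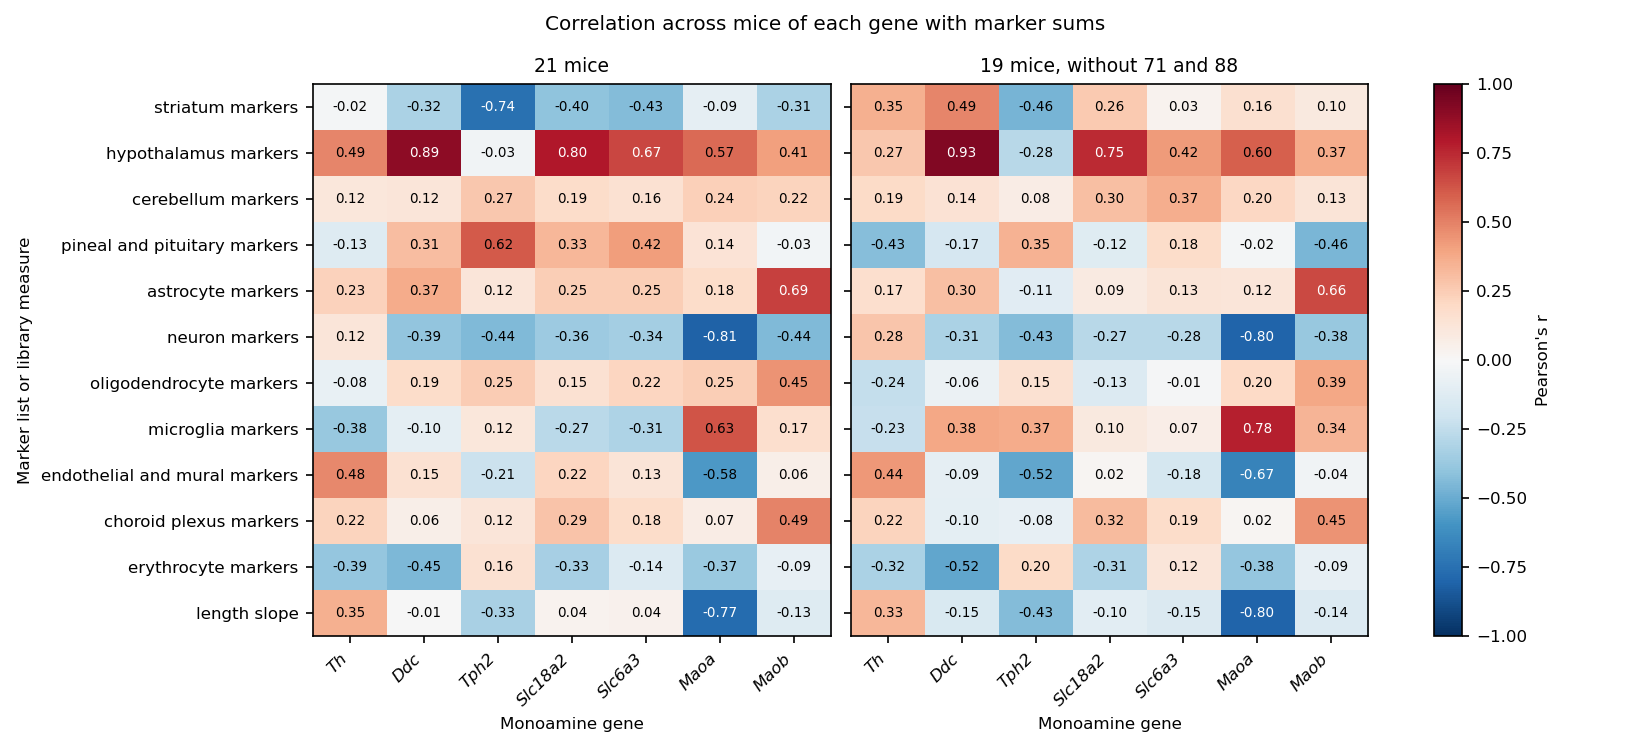
Pearson's r across mice between each monoamine gene and the mean log2 CPM of each marker list or the length slope, with group means removed, for 21 mice (left) and without mice 71 and 88 (right). The values are of these means and not of sums. Olfactory bulb markers are left out because their sums fall into 2 sets, and Ddc with hypothalamus markers (0.89 and 0.93) and Maoa with neuron markers (-0.81 and -0.80) keep their values in both panels.

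Between the genes themselves, 21 pairs were correlated. Over all 21 mice 6 pairs passed, namely every pair of Th, Ddc, Slc18a2 and Slc6a3, with adjusted p from 0.00021 to 0.0267. Since mice 71 and 88 lie apart and are high in all 4 genes, r is given for the other 19, a choice made after the values were seen. In these, Ddc and Slc18a2 correlated with r = 0.72 (permutation p = 0.00051, adjusted p = 0.00535, rho 0.66, p = 0.00225, r = 0.70 without the 2 farthest mice) and Th and Slc18a2 with r = 0.70 (p = 0.00092, adjusted p = 0.00644, rho 0.79, p = 9e-05, r = 0.75 without the farthest). Slc6a3, which passed with all 3 over 21 mice, did not pass with any gene in the 19: r was 0.52 with Slc18a2 (adjusted p = 0.0924), 0.45 with Th (adjusted p = 0.166) and 0.26 with Ddc (adjusted p = 0.385). Th and Tph2 went in opposite directions (r = -0.78, p = 7e-05, adjusted p = 0.00147, rho -0.80, p = 7e-05, r = -0.74 without the farthest), and in the 12 PBS mice alone r was -0.87 (adjusted p = 0.00903). With all 21 mice that value was -0.36 (adjusted p = 0.171), and female 71 was high in both. Within the upper olfactory bulb set the r of Th and Tph2 was -0.61 (n = 6, exact permutation p = 0.192). Within the lower set it was 0.34 (n = 15, permutation p = 0.182). Without female 71 the lower set gave -0.57 (n = 14, permutation p = 0.0322, adjusted over 3 relations 0.0483).

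Among genes whose log2 CPM averaged 0 or more (14502 or 14503 were searched for each member), those whose log2 CPM followed a member most closely across the 21 mice, with no group means removed, were named as a description, with the r without mice 71 and 88 in brackets. For Th they were Pappa (r = 0.92, [0.89]) and Cacng5 (0.92, [0.95]), and for Ddc Gprasp2 (0.94, [0.94]) and Ahi1 (0.93, [0.90]). Slc18a2 was followed by Amigo2 (0.91, [0.86]) and by Ddc itself (0.89, [0.73]). Slc6a3 was followed by Slc18a2 (0.83, [0.56]) and Cybrd1 (0.81, [0.61]), values that dropped once the 2 mice were left out. For Tph2 the nearest were Klk8 (0.75, [0.83]) and Mturn (0.68, [0.72]), for Maoa Ormdl1 (0.95, [0.96]) and Wrb (0.95, [0.95]), and for Maob Ccdc146 (0.82, [0.82]) and Rsph1 (0.81, [0.81]). The points of these correlations share libraries and depth.

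Other genes of the pathway were read from lists. Of the 7 genes for tetrahydrobiopterin, the cofactor that Th and Tph2 need, 0 rose and 3 fell with HsTX1[R14A], with a median log2 fold change of -0.29 beside -0.01 over all genes, and 16.1% of all genes fell. Pts, an enzyme of cofactor synthesis, averaged 23.1 ± 7.80 CPM (SD) over the 12 PBS mice and 14.9 ± 3.64 CPM over the 9 HsTX1[R14A] mice (log2 fold change -0.66, SE 0.18, edgeR adjusted p = 0.0180). Qdpr, dihydropteridine reductase, named after its values were seen, fell as well. Pts passed in every fit that left out 1 mouse, and the ranges of the groups overlapped.

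Of 7 other enzymes and transporters tested, 0 rose and 1 fell (median log2 fold change -0.07), a share near the 16.1% of all genes that fell. It was Hnmt, which methylates histamine, with 34.6 ± 9.98 CPM in PBS and 25.7 ± 5.44 CPM in HsTX1[R14A] mice (-0.47, SE 0.15, adjusted p = 0.0273). Slc29a4, the plasma membrane monoamine transporter, was 8.20 ± 3.29 and 11.998 ± 5.92 CPM (0.57, SE 0.25, adjusted p = 0.0774), with its highest value in female 71 (25.2 CPM). Tph1, the peripheral tryptophan hydroxylase, was below the filter with 1 to 25 counts, and Pnmt, Slc6a2 and Slc18a1 had no row.

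Transcription factors that specify monoamine neurons were covered only in part, since 5 of 13 had a row, and Pitx3, Lmx1b, En1, Foxa1, Foxa2 and Fev were among those that had none. Of the 5, 1 rose and 0 fell (median log2 fold change 0.45), a share near the 15.5% of all genes that rose. Gata2, which acts in serotonin neuron development and in many GABAergic neurons, went from 1.18 ± 0.338 CPM to 1.88 ± 0.656 CPM (log2 fold change 0.71, SE 0.18, adjusted p = 0.0169), and its highest value was in female 71 (3.05 CPM). Nr4a2, the orphan receptor that binds the AAAGGTCA letters and maintains dopamine neurons, was 27.1 ± 9.01 and 36.2 ± 13.5 CPM (0.45, SE 0.18, adjusted p = 0.0569), with 48.3 CPM in female 71 and 26.5 CPM in male 88.

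Of 13 dopamine and adrenergic receptors, 5 rose and 0 fell (median log2 fold change 0.33), where 15.5% of all genes rose. Drd3, the dopamine D3 receptor, was 0.310 ± 0.172 CPM in PBS and 0.719 ± 0.334 CPM in HsTX1[R14A] mice (1.28, SE 0.36, adjusted p = 0.0200), and Adrb3, a beta adrenergic receptor, 0.591 ± 0.176 and 0.896 ± 0.123 CPM (0.53, SE 0.15, adjusted p = 0.0204). Both rest on few counts, since 3 counts correspond to 0.0609 to 0.213 CPM. The lowest PBS values were 0 CPM for Drd3 and 0.355 CPM for Adrb3. Adra1a, Adra2a and Adrb1, named after their values were seen, were the other receptors that rose. The receptors Drd1 and Drd2, the most abundant dopamine receptors of the striatum, did not pass.

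**Figure D5:**
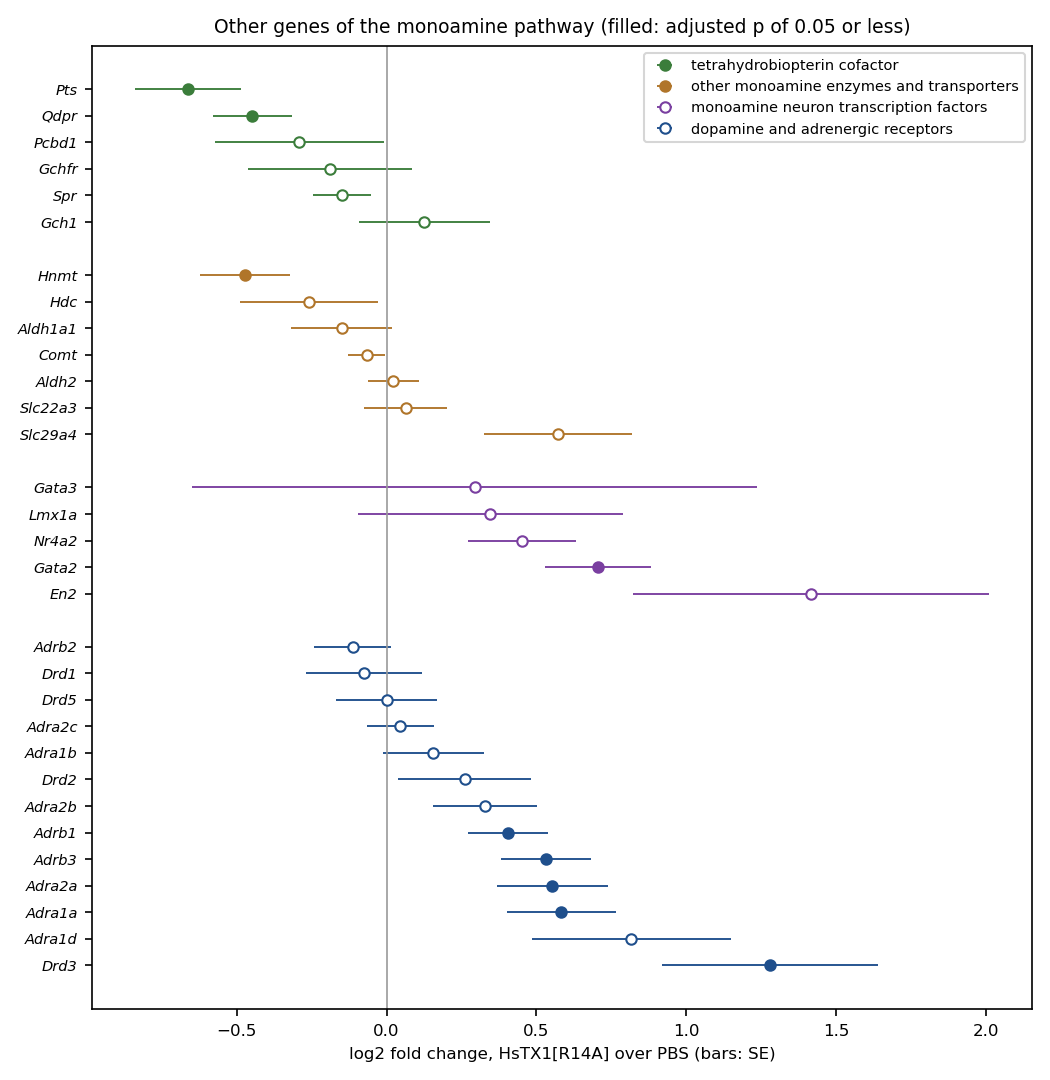
Log2 fold change between HsTX1[R14A] and PBS mice with its standard error for genes of 4 pathway lists, filled where the adjusted p was 0.05 or less. Filled points lie left of 0 for the cofactor genes Pts and Qdpr and for Hnmt, and right of 0 for Gata2 and 5 receptors.

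Beside these, the marker lists moved as follows with treatment: 4 of 8 oligodendrocyte, 4 of 10 astrocyte and 3 of 8 microglia markers fell and none of these rose, 2 of 10 neuron, 1 of 9 cerebellum and 1 of 10 endothelial and mural markers rose and none fell, and 0 of 6 olfactory bulb, 0 of 10 striatum, 0 of 9 hypothalamus, 0 of 3 pineal and pituitary, 0 of 8 choroid plexus and 0 of 5 erythrocyte markers passed. Over all lists 25 of 124 genes passed, 10 higher and 15 lower, a smaller share than the 31.6% of all genes tested that passed. When mice 71 and 88 were left out, 0 of the 16304 genes tested passed by edgeR (6013 at an unadjusted p under 0.05), so that each call above was lost, including Pts (-0.64, adjusted p = 0.0687), Gata2 (0.63, adjusted p = 0.0658) and Drd3 (1.36, adjusted p = 0.0658). With the length slope as a covariate 0 genes passed as well.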

How the data were processed

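RNA from the brains of 21 mice was sequenced with 1 library per mouse. Per the labels and the study's methods, the authors aligned reads to GRCm38 with STAR and quantified genes with Salmon through nf-core/rnaseq 3.2, and deposited estimated counts per gene, not normalized. The labels name a SMARTER library kit and the study's methods another one, and the filter that left 16318 genes and the strand setting are not given in the sources used here. The deposited table also holds the authors' CPM, fold changes and p-values, which were not used, nor were 53 further per-sample columns.

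Counts were rounded to whole numbers. For the 16303 genes that filterByExpr kept, the quasi-likelihood test of edgeR 4.0.16 (glmQLFit, then glmQLFTest, under R 4.3.3) was run on TMM-scaled libraries with sex and treatment as terms. Benjamini-Hochberg adjustment covered every tested gene, with a threshold of 0.05. Log2 CPM carried a prior count of 2. Per the study's methods, treatment was randomized among the mice of each cage, but the labels do not give the cage, so it is not in the model. Nothing says whether mice shared litters, so p-values measure the spread between these mice. limma 3.58.1 with voom, DESeq2 1.42.0 and sva 3.50.0 served as alternatives, and the fit was tested on simulated data. Transcript length came from GENCODE for GRCm38 and promoter sequence from RefSeq, which matched 8 of the 9 genes.

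The members and lists were chosen with earlier results of these data known. Named were the members, the 2 genes of each pathway list with the smallest treatment p, and the 2 genes most like each member. Genes of the marker lists are given as counts and sums, and in correlations as the mean log2 CPM of a list. The cerebellum markers Pcp2, Cbln3 and Gabra6 are also given by name. Some genes of the pathway lists are counted but not reported here by name.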

Additional observations from a re-analysis of the deposited data

Results flagged for a closer look

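In 21 groups of 6 mice (7 genes in PBS females, PBS males and HsTX1[R14A] males), 6 values, from 4 mice, lay apart from the rest of their group by Dixon's criterion, which chance exceeds in about 1 group in 20. HsTX1[R14A] male 88 was the highest of its group in Ddc (14.9 CPM), Slc18a2 (10.5 CPM) and Slc6a3 (18.3 CPM). PBS female 105 was the highest of its group in Th (16.2 CPM). HsTX1[R14A] male 81 was the lowest of its group in Maoa (24.01 CPM), and PBS male 101 the lowest of its group in Maob (18.6 CPM). HsTX1[R14A] females, female 71 among them, number 3 and were not examined this way.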

How the results depend on the processing

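The treatment test passed 5144 genes. Other settings gave 2984 without the sex term, 2501 with length and GC trends removed, 1999 with the library name form as a covariate, and 0 with the length slope as a covariate (1865 at an unadjusted p under 0.05), within the SAMP8 form (5797), within the SAMP form (532) and without mice 71 and 88 (6013). Leaving out 1 mouse gave 2289 (without PBS male 90) to 6614. Of the monoamine genes, 1 passed, and 0 passed by limma/voom (Slc6a3 1.81, adjusted p = 0.106), with sample quality weights, with the length slope, within either name form and without mice 71 and 88; leaving out 1 mouse gave 0 to 3. DESeq2 gave no adjusted p for Slc6a3. Of the list genes 25 passed, against 14 with the name form, 16 with trends removed, 0 with the length slope, within either form and without mice 71 and 88, and 14 to 35 with 1 mouse left out. The sex test passed 9 genes, 1 with at least 10 counts in every mouse and 26 by DESeq2. Over all mice 6 member pairs passed, against 2 in PBS mice, 10 with the length slope removed and 3 without mice 71 and 88, and these counts do not hold the same pairs throughout. The order of levels kept 5 of 7 places with mean transcript lengths and 4 without mice 71 and 88. The cause of these shifts was not tested.

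Signs that turned were all of values that did not pass, except Slc6a3 (-0.085 without mice 71 and 88). Within the SAMP form these were Ddc (-0.56), Tph2 (-0.089) and Slc18a2 (-0.64); without mice 71 and 88 Ddc (-0.23), Tph2 (-0.42), Slc18a2 (-0.80) and Tph2 between sexes (0.29). Tph2 was -0.14 by limma/voom and -0.16 with quality weights, Maob 0.057 with trends removed, and Slc29a4 -0.069 and Maoa between sexes -0.057 with the length slope. The Maoa interaction was -0.032 by limma/voom and -0.12 with the length slope. With 1 mouse left out, the treatment estimate of Tph2 ran from -0.51 to 0.38 and its sex difference from -0.63 to 0.26, and interactions ran from -1.37 to 0.49 for Ddc, -1.49 to 0.87 for Tph2, -1.98 to 1.46 for Slc18a2, -3.95 to 2.82 for Slc6a3 and -0.13 to 0.12 for Maoa. Depth limits Tph2 and Slc6a3, which had under 20 counts in most mice. No paired or blocked analysis was possible, because each mouse number occurs in 1 group only and the labels do not give the cage.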
